A study of Mus musculus with 10 samples.

Results

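A 2.35 Mb stretch of distal mouse chromosome 4 (chr4:144900000-147250000, mm9) was examined in R1E mouse embryonic stem cells. It was chosen by the measured density of hnRNP L peaks, since it held 169 of the 1120 hnRNP L peaks of untreated cells and 168 of the 1022 of Adriamycin-treated cells. The stretch is called the cluster here. Every peak that overlapped it was taken, which gave 965 peaks of 543779 in all 10 lists. The hnRNP L density set the choice, so the hnRNP L values are a description, with no test. At the edges of the stretch the density broke off. The proximal side of equal size (chr4:142550000-144900000), called the flank, held 0 hnRNP L peaks in each condition, and the distal side of equal size held 1 in each.

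The cells were grown for fewer than 20 passages, on a C57BL/6X129Sv mix background, in serum with leukaemia inhibitory factor. They were left untreated or given 0.5 uM Adriamycin for 8 h, and no other agent separated the groups. Chromatin immunoprecipitation with sequencing (ChIP-seq) covered 5 targets, which were H3K4me3, H3K27me3, H3K79me2, hnRNP L and RNA polymerase II (Pol II). Each target had 1 library per condition, so no difference between conditions has a replicate check, and read depth was unknown. Peaks were the authors', with a start, an end and a score from the peak caller MACS that ranks peaks within a list.

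Distal chromosome 4 of the mouse carries a family of Krüppel-associated box zinc finger genes in many similar copies. Proteins of this class bind DNA through their fingers, and many recruit the co-repressor TRIM28 to transposable elements. hnRNP L is an RNA-binding protein that prefers CA-rich RNA and acts in splicing. H3K4me3 marks active and poised promoters, H3K79me2, laid down by DOT1L, marks transcribed gene bodies, and H3K27me3 is the Polycomb mark. Adriamycin poisons topoisomerase II and breaks DNA.

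The copies are shown by their promoters, because closely alike sequences bear on how reads can be placed among them. In RefSeq's gene order on GRCm38.p6, 82 genes lay between Tnfrsf8 and Miip, taken here as the borders of the family. Of these, 17 had a Zfp or Znf symbol, 19 were protein coding and 56 were pseudogenes. A promoter sequence was at hand for 19 of the 82. Over the 250 bases before the start site, 10 of the 19 were at least 90% identical to another of them, with a median best identity of 90.8%. Another 6 of the 19 had a best identity of 59.2% to 61.2%. Among the next 19 genes on the distal side none of 19 reached 90%, the median best identity was 61.2% and the highest 64.4%. Over all pairs, alike or not, the median identity was 58.4% in the stretch and 56.8% among the distal genes, so the likeness lay within subgroups. The promoter of Rex2 was 99.6% identical to that of Zfp600, 96.4% to that of Zfp979 and 90.4% to that of Zfp980. These 4 are printed 5′ to 3′ from RefSeq (GRCm38.p6, the strand of the gene), as an example from the most alike subgroup, to show how little separates those copies. Capitals mark the bases that differ from or are added to Rex2 in a pairwise alignment, which covers mismatches and insertions but not missing bases.
Rex2: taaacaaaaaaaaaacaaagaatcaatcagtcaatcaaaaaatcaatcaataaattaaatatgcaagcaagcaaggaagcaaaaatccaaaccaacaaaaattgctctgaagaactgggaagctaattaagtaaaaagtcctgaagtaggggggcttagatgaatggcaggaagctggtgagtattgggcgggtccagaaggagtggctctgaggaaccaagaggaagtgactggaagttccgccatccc
Zfp600: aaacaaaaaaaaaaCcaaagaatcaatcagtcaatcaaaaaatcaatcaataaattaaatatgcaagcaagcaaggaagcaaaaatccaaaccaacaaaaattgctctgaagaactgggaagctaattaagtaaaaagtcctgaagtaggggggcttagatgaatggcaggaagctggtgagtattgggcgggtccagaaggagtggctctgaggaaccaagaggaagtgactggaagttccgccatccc
Zfp979: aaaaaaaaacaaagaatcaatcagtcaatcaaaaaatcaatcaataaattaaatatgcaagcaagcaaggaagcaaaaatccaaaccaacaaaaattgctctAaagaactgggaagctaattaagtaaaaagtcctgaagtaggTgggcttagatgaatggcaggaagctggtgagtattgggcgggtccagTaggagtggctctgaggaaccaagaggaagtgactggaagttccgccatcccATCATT
Zfp980: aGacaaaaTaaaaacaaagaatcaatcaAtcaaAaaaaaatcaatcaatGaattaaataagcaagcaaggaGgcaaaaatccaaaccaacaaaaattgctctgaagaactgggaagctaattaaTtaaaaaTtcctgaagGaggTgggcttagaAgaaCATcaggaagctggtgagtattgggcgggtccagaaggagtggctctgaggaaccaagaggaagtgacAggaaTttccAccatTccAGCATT
The Zfp600 window carried 1 capital, Zfp979 carried 9 and Zfp980 carried 24. Most of each window was therefore shared letter for letter with Rex2. The repeat ACACACAC, searched on both strands in windows that also took in 50 bases after the start, was in 0 of the 19 windows and in 3.35% of 32851 promoter windows. No annotation on mm9 was used, so the peaks below are given by position and are not assigned to these genes, and the stem cell label could not be checked at marker genes.

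hnRNP L peaks were spread over nearly the whole stretch. They reached from 144994067 to 147181367 in untreated cells and from 144993084 to 147187054 after Adriamycin. They covered 210.7 kb (8.97% of the cluster) before and 217.5 kb (9.25%) after treatment. Among 1093 windows of the same size on the numbered chromosomes and X the cluster ranked first in both lists, and the next window held 111.8 kb and 119.3 kb. The covered length of hnRNP L was thus highest here among these windows, a pattern the choice of the stretch fixed. Contigs outside these chromosomes, with 158 hnRNP L peaks in untreated cells and 153 after Adriamycin, were not ranked.

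The hnRNP L peaks were weak within their own lists. Their median score was 80.2 in untreated cells and 79.9 after Adriamycin, beside 112.5 and 121.6 over the whole lists. The highest in the cluster were 288.4 (chr4:146602986-146605487) and 419.9 (chr4:145262860-145267612), beside 3205 and 3222 in the lists. Median widths were 981 bp and 963 bp. Neighbouring peaks started 4561 bp apart at the median in untreated cells and 5221 bp after Adriamycin. The spacing was uneven. In untreated cells the middle of the distances, between their lower and upper quartiles, ran from 2227 to 12343 bp, and the largest gap between hnRNP L peaks was 116.6 kb.

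Peaks no more than 10 kb apart were chained into runs. There were 46 such runs in untreated cells and 44 after Adriamycin. The longest untreated run (chr4:146602986-146655984) held 15 peaks over 53.0 kb. The longest Adriamycin run (chr4:146728246-146771349) held 14 peaks over 43.1 kb, and the second longest untreated run covered nearly the same place (chr4:146729363-146773251) with 11 peaks. The leading run of untreated cells was therefore not among the 3 longest after Adriamycin.

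Position by position, hnRNP L peaks were poorly shared between the conditions, although most had a peak of the other list close by. A partner is an overlapping peak, by at least 1 bp, of that target in the list of the other condition. Without a partner were 81 of 169 untreated peaks (47.9%, exact 95% interval 40.2 to 55.7), beside 36.1% of the whole list. After Adriamycin 80 of 168 peaks (47.6%, 39.9 to 55.5) had none, beside 30.4% of the list. The whole list mixes unlike groups. Dense clusters elsewhere are at least 10 hnRNP L peaks with gaps of up to 100 kb, and dispersed peaks are the rest outside contigs. A partner was present for 52.1% (44.3 to 59.8) and 52.4% (44.5 to 60.1) of the cluster's peaks. It was present for 58.5% and 68.8% of dispersed peaks, 74.6% in dense clusters in both lists, and 82.9% and 84.3% on contigs. Within 5 kb, however, 82.2% of untreated peaks and 83.9% of Adriamycin peaks had a peak of the other list. The peaks lie densely in this stretch. Within each list 57.1% (untreated) and 57.5% (Adriamycin) of the gaps between neighbours were at most 5 kb. The part of this density in the nearness was not tested, so the 5 kb shares do not show that sites were shared. Partners of any score were more frequent among strong peaks. Of the 42 strongest peaks 66.7% in untreated cells and 78.6% after Adriamycin had one, and of the 43 and 42 weakest 46.5% and 38.1%.

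Some hnRNP L peaks came in pairs of equal width and equal score at distant places. Untreated cells had 3 such pairs and Adriamycin-treated cells 5. The pair with the highest score had 1160 bp and a score of 97.9 at both chr4:146408940-146410099 and chr4:146635652-146636811, 226.7 kb apart. Peaks with such an equal made up 3.55% and 5.95% of the cluster's hnRNP L peaks and 2.84% and 3.04% of those elsewhere. In the cluster H3K79me2 after Adriamycin had 4 such peaks of 187. Untreated H3K79me2 had 0, as did H3K4me3, H3K27me3 and Pol II in both conditions. Outside the cluster such peaks were frequent in these far longer lists. In untreated and treated cells they made up 15.3% and 26.5% for H3K79me2 and 23.0% and 23.7% for H3K4me3. For H3K27me3 they made up 44.7% and 50.6%, and for Pol II 21.0% and 23.7%. Equal pairs were thus not particular to hnRNP L or to the cluster. The sources used here do not say how reads that match several places were treated, and the part of such reads in these pairs was not tested.

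**Figure D1:**
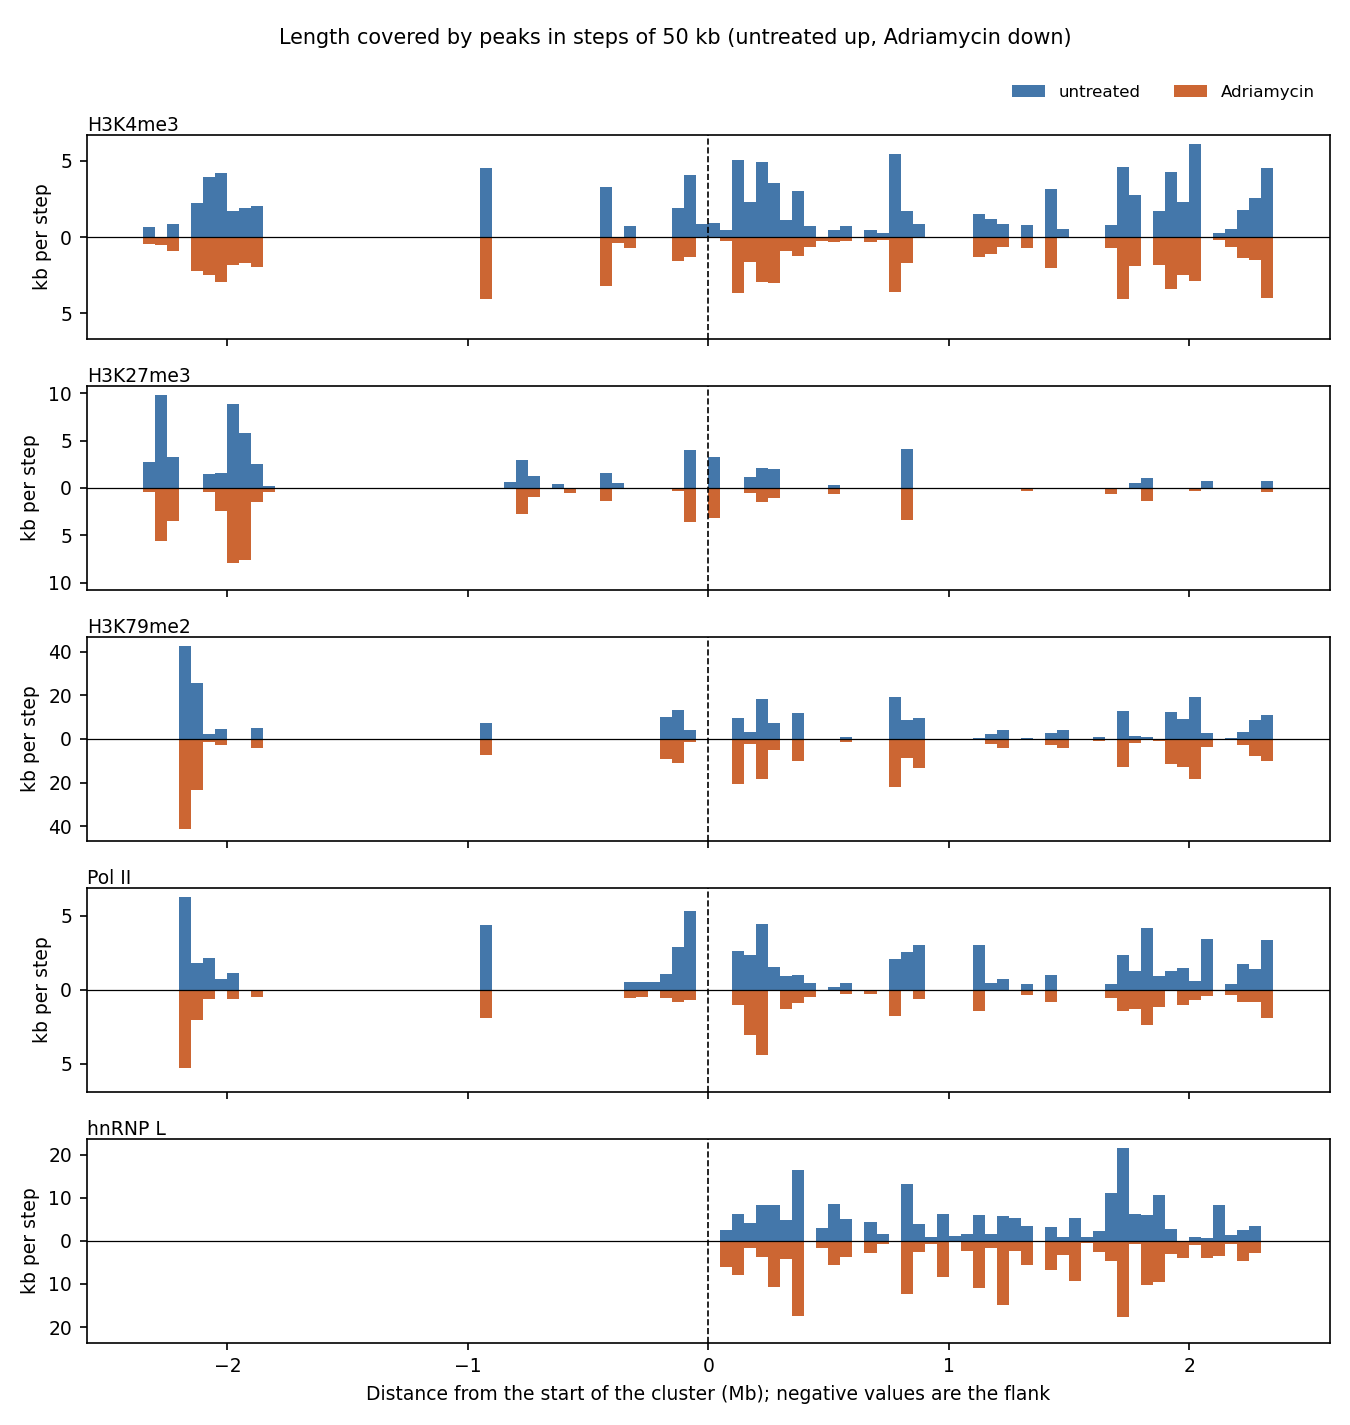
Length covered by peaks (kb, y axis) in steps of 50 kb along the flank and the cluster (x axis, Mb from the start of the cluster), with untreated cells drawn upwards and Adriamycin-treated cells downwards, 1 library each. hnRNP L peaks are listed to the right of the dashed line alone, and H3K79me2 and H3K4me3 form separate blocks within the cluster.

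Most hnRNP L peaks in the cluster, as elsewhere, lay outside peaks of the other 4 targets. Those in the cluster that did not were mostly on H3K79me2. In untreated cells 33 of 169 hnRNP L peaks (19.5%, exact 95% interval 13.8 to 26.3) overlapped H3K79me2, and after Adriamycin 38 of 168 (22.6%, 16.5 to 29.7) did. Elsewhere on the numbered chromosomes and X, with any peaks on Y counted in, the shares were 4.41% (3.09 to 6.09) and 3.71% (2.44 to 5.39). H3K4me3 was overlapped by 10.7% of the cluster's peaks in untreated cells and 9.52% after Adriamycin, beside 3.03% and 2.71% elsewhere. H3K27me3 had the opposite order. It was overlapped by 2.96% and 2.38% of the cluster's hnRNP L peaks and by 16.3% and 14.6% of those elsewhere. Among those elsewhere, the peaks of dense clusters had lower H3K27me3 shares, 9.27% and 9.45%, than dispersed peaks, 18.7% and 16.6%. On H3K79me2 the dense clusters stood at 1.95% and 2.99%, and on H3K4me3 at 4.39% and 3.98%. These shares are a description, since hnRNP L density chose the stretch and its peaks lie in runs. The marks were not equally frequent in the 2 settings: H3K79me2 covered 185.7 kb of the cluster in untreated cells beside a median of 80.6 kb over windows of the same size, and H3K27me3 15.9 kb beside 55.2 kb. The part of these amounts in the overlaps was not tested.

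Pol II was overlapped by 23 of 169 hnRNP L peaks in untreated cells (13.6%, 8.83 to 19.7) and by 9 of 168 after Adriamycin (5.36%, 2.48 to 9.93). Elsewhere the values were 11.7% and 10.4%, and in the dense clusters among them 5.37% and 2.99%. The Pol II list of the cluster was shorter after Adriamycin, with 48 peaks in place of 78. So was the whole Pol II list, with 59426 peaks in place of 81069. Any of the other 4 targets was overlapped by 29.0% of the cluster's hnRNP L peaks in untreated cells and 29.8% after Adriamycin. Elsewhere the values were 25.1% and 22.3%, so lying outside the other targets was not particular to the cluster.

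**Figure D2:**
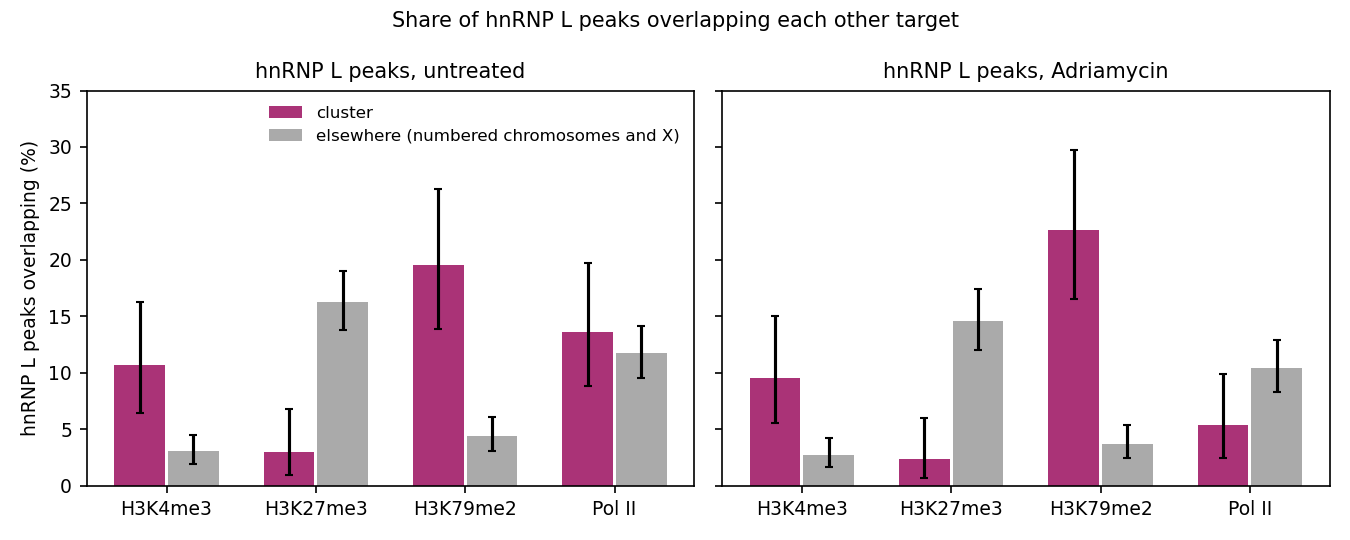
Share of hnRNP L peaks (%, y axis) that overlap peaks of each other target in the same condition, in the cluster and elsewhere. Elsewhere is the numbered chromosomes and X, with any peaks on Y counted in. Bars are single libraries and lines are exact 95% intervals for counting error; H3K79me2 stands at 19.5% and 22.6% in the cluster and 4.41% and 3.71% elsewhere.

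H3K79me2, the mark of transcribed gene bodies, covered more of the cluster than the other histone marks and was the histone mark with more length after Adriamycin. It had 147 peaks over 185.7 kb in untreated cells and 187 peaks over 200.1 kb after Adriamycin, a ratio of 1.08. The flank went the other way, with 114.6 kb and 102.3 kb (0.893), as did the distal side (0.914) and the whole list (0.937). Of 815 windows of the same size with at least 20 kb in untreated cells, 17.4% had more after Adriamycin, and 42 had a higher ratio than the cluster. Higher covered length thus occurred elsewhere too. The number of H3K79me2 peaks was also higher over the whole list, with 63053 untreated and 71959 treated.

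Most of the gain in length lay in 1 of the 47 steps of 50 kb. The step chr4:145000001-145050000 held 9.81 kb of H3K79me2 in 7 untreated peaks and 20.8 kb in 12 Adriamycin peaks. Without that step the cluster had 175.9 kb and 179.4 kb, a ratio of 1.02, which 95 of the 815 windows exceeded. In that step an untreated peak ended at 145025016 (chr4:145022772-145025016). The Adriamycin list had a wider peak there (chr4:145021767-145025658), followed by 2 peaks with no partner (chr4:145025660-145028625 and chr4:145028674-145030429) and, further on, 2 more (chr4:145036222-145038155 and chr4:145038283-145039261). The unpartnered peaks of scores 324.8 and 327.4 were the strongest of their kind in the Adriamycin list of the cluster. H3K4me3 and Pol II were lower in length at the same place. H3K4me3 peaks of 2.65 kb and 2.89 kb in untreated cells faced peaks of 1.89 kb and 2.04 kb after Adriamycin. Pol II had 3 peaks there in untreated cells and 1 after Adriamycin.

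Over the other 46 steps of the cluster H3K79me2 went both ways. Its length was higher after Adriamycin in 16 of them and lower in 11, and in the flank it was higher in 1 and lower in 8. Peaks with a partner covered 174.9 kb untreated and 168.0 kb treated. Peaks without a partner covered 10.8 kb and 32.1 kb. The added length therefore sat in peaks that the untreated list did not have.

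H3K79me2 peaks without a partner were 16 of 147 in untreated cells (10.9%, 6.35 to 17.1), beside 19% of the whole list, and 44 of 187 after Adriamycin (23.5%, 17.6 to 30.3), beside 18%. In the flank 5 of 58 Adriamycin peaks (8.62%, 2.86 to 19.0) had none. Fisher's exact test, two-sided, between cluster and flank gave p = 0.0139 and p = 0.111 after Benjamini-Hochberg adjustment over 8 tests, so the difference did not pass. The adjusted p was 0.0406 for peaks with a score of at least 100 and 0.0456 where an overlap had to span 50% of the shorter peak, and 0.524 when both lists were cut to equal length by score. The test treats peaks as independent and compares places within the same libraries, not conditions.

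The strongest H3K79me2 peaks were long and were in both lists. The first stood at chr4:145672238-145685063 in untreated cells, 12826 bp wide, and at chr4:145669334-145685042 after Adriamycin, 15709 bp wide. The second stood at chr4:146936043-146941320 and at chr4:146936347-146941335. All reached a score of 3100, where scores pile up. The long peak at 145672238 overlapped H3K4me3 and Pol II peaks of both conditions, and no hnRNP L peak.

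H3K4me3, the promoter mark, covered 72.3 kb of the cluster in 66 untreated peaks and 52.0 kb in 71 Adriamycin peaks. Over the whole list it had 38421 and 41705 peaks. The ratio of 0.719 compared with 0.802 in the flank, 0.996 on the distal side and 0.916 over the list. Of 745 windows of the same size with at least 20 kb in untreated cells, 25 had a lower ratio and 16.2% had more length after Adriamycin. The length was lower in 31 of the 47 steps and higher in 4. The largest drop was at chr4:146900001-146950000, with 6.09 kb in the untreated and 2.87 kb in the Adriamycin list.

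The difference in H3K4me3 length lay mostly in peaks that both lists had, which covered 65.4 kb untreated and 49.2 kb treated. Without a partner were 12 of 66 untreated peaks (18.2%, 9.76 to 29.6), beside 14.5% of the list, and 8 of 71 Adriamycin peaks (11.3%, 4.99 to 21.0), beside 15.8%. The median width was 829 bp in untreated cells and 518 bp after Adriamycin. Of the untreated peaks 7 overlapped 2 or more Adriamycin peaks, and 0 Adriamycin peaks overlapped 2 or more untreated peaks. The part of such splitting in these medians was not tested. Among 47 peaks matched one to one, 44 were narrower after Adriamycin (93.6%, 82.5 to 98.7), with a median difference of -147 bp. Their median widths were 820 bp untreated and 669 bp treated, beside 1349 bp and 1244 bp for matched peaks over the list. In the flank 11 of 15 were narrower, with a median of -82 bp, and over the list 68.5%, with a median of -90 bp. Fisher's exact test, two-sided, of the cluster against the rest of the list gave p = 5.32e-05, and p = 0.000213 after Benjamini-Hochberg adjustment over 4 targets. This test was chosen after the values were seen, treats neighbouring peaks as independent, and compares places rather than conditions. For H3K79me2 76 of 107 matched peaks were narrower (adjusted p = 0.548) and for Pol II 25 of 32 (adjusted p = 0.196, Fisher's exact test). For H3K27me3 7 of 10 were narrower (adjusted p = 0.710, Fisher's exact test), and for hnRNP L, without a test, 33 of 59.

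The strongest H3K4me3 peaks lay near the ends of the cluster. The first and the second stood at chr4:147221502-147223890, with a score of 3100, and at chr4:147241535-147243677, with 2188, both near the distal edge. The third stood at chr4:145052984-145054858, with 1905, and was the highest that hnRNP L peaks of both conditions overlapped. All 3 were also the highest 3 after Adriamycin. The strongest peaks without a partner were weak beside these, at 222.7 in untreated cells (chr4:145459983-145460415) and 78.7 after Adriamycin (chr4:147075949-147076206).

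Pol II peaks covered 50.2 kb of the cluster in the untreated list and 29.2 kb in the Adriamycin list, a ratio of 0.581. The ratio was 0.508 in the flank, 0.742 on the distal side and 0.707 over the list. Of 671 windows of the same size with at least 20 kb in untreated cells, 194 had a lower ratio and 4.92% had more length after Adriamycin. The cluster was thus inside the range of other windows. Without a partner were 40 of 78 untreated peaks (51.3%, 39.7 to 62.8), beside 48% of the list, and 13 of 48 Adriamycin peaks (27.1%, 15.3 to 41.8), beside 26.1%.

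The highest Pol II peaks were in both lists or were replaced in rank. The first in both was at the same place, chr4:147112660-147113623 in untreated cells (score 2585) and chr4:147112648-147113459 after Adriamycin (1058), and it lay on H3K4me3. The second in untreated cells, chr4:145135066-145136444 with 2317, overlapped an Adriamycin peak but was not among the 3 highest there, and overlapped no other target. A peak at chr4:146034366-146035468, with 1593, was on H3K4me3 in both conditions and on hnRNP L after Adriamycin. The strongest Pol II peak of untreated cells with no partner was chr4:146960253-146961737, with 488.1, which lay on no other target. The step that held it, chr4:146950001-147000000, had 3.41 kb of Pol II untreated and 0.420 kb treated.

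H3K27me3, the Polycomb mark, was sparse. It had 15 peaks over 15.9 kb in untreated cells and 16 peaks over 13.3 kb after Adriamycin, beside 53 and 45 peaks in the flank. The cluster ranked 837 and 804 of 1108 windows by covered length. The ratio was 0.838, beside 0.826 in the flank and 0.746 over the list. Of 800 windows with at least 20 kb in untreated cells, 51 had a higher ratio and 0.375% had more length after Adriamycin. The cluster itself, with 15.9 kb, was below that minimum, so these windows are unlike it. At a score of at least 100 the ratio of the cluster turned to 1.03, with 3 peaks left in each condition. Without a partner were 5 of 15 untreated peaks, beside 41.2% of the list, and 6 of 16 Adriamycin peaks, beside 27%. The strongest peak, chr4:144903739-144906990 with 1163, lay at the proximal edge and outside the hnRNP L span. The second, chr4:145720021-145722315 with 486.2, overlapped H3K4me3, H3K79me2 and hnRNP L peaks of both conditions.

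For the other 7 comparisons of partner share between cluster and flank, Fisher's exact test gave an adjusted p of 0.768. The flank lists of these 7 held between 18 and 57 peaks, and a p of this size does not show that the shares were alike.

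**Figure D3:**
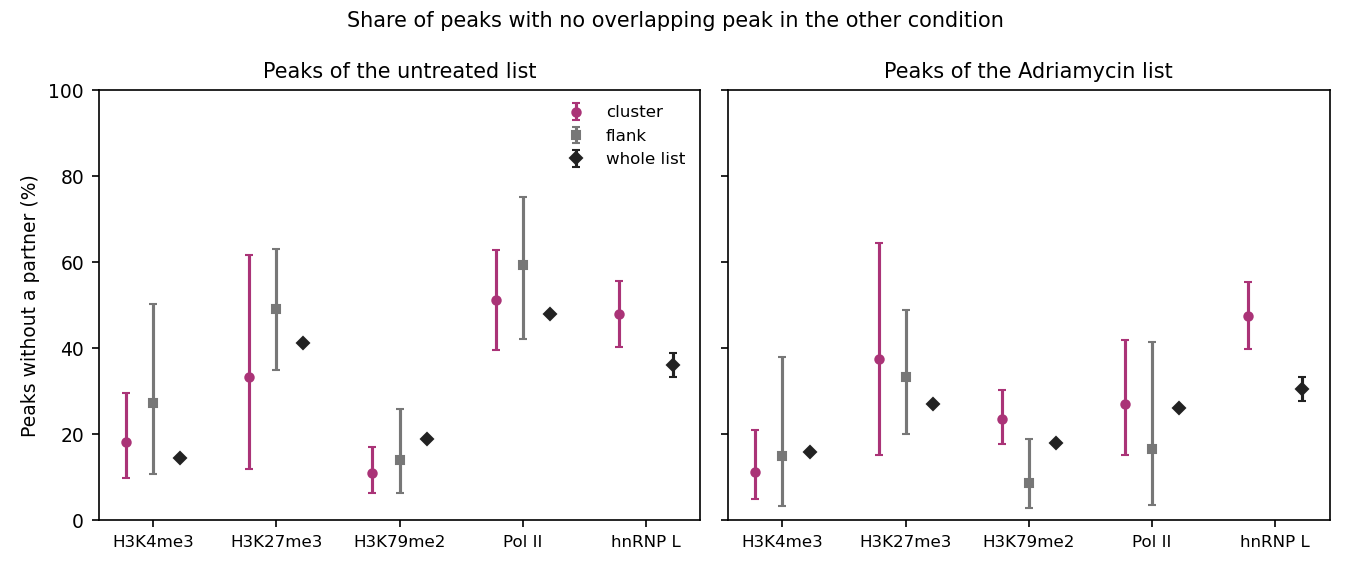
Share of peaks without a partner in the other condition (%, y axis) in the cluster, the flank and the whole list, for the untreated list (left) and the Adriamycin list (right). Points are single libraries and lines are exact 95% intervals for counting error; for H3K79me2 after Adriamycin the cluster stands at 23.5% and the flank at 8.62%.

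**Figure D4:**
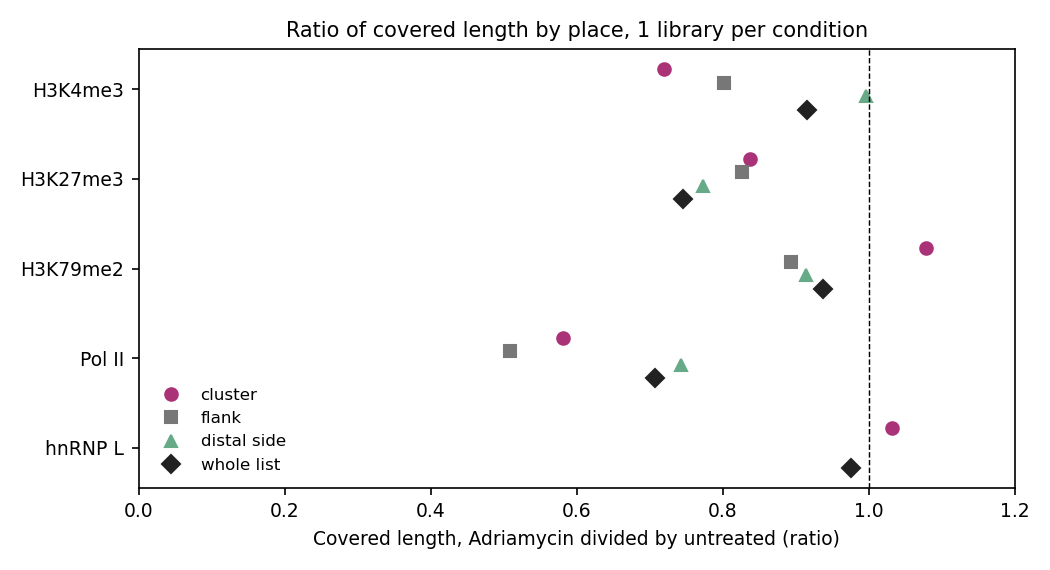
Covered length after Adriamycin divided by that in untreated cells (x axis, ratio) for each target in the cluster, the flank, the distal side of equal size and the whole list, with 1 library per condition. For H3K79me2 the cluster stands at 1.08 and the other places at 0.893 to 0.937; hnRNP L is shown for the cluster and the whole list.

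Joined over all 10 lists with gaps of up to 1 kb, the peaks of the cluster formed 209 regions, and 125 of these held 1 target. hnRNP L alone made up 88 regions (42.1%), with a median length of 1.07 kb, and 30 of the 88 had hnRNP L in both conditions. H3K79me2 alone made up 24 regions. The 146 regions with hnRNP L therefore divided into 88 without any other target and 58 with at least 1.

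The regions with H3K4me3 were mostly the same in both conditions, and those with Pol II were not. Peaks over the whole lists had that order too. Without a partner were 14.5% of untreated and 15.8% of treated H3K4me3 peaks, and 48% and 26.1% of Pol II peaks. For H3K79me2 these shares were 19% and 18%, for hnRNP L 36.1% and 30.4%, and for H3K27me3 41.2% and 27%. Regions were joined in the cluster alone, so the region counts have no background of their own. H3K4me3 was in both conditions in 40 of 49 regions, in untreated cells alone in 6 and after Adriamycin alone in 3. Pol II was in both in 31 of 62, in untreated cells alone in 24 and after Adriamycin alone in 7. H3K79me2 was in both in 57 of 76, in untreated cells alone in 4 and after Adriamycin alone in 15. hnRNP L was in both in 61 of 146, in untreated cells alone in 43 and after Adriamycin alone in 42. H3K27me3 was in both in 8 of 18. Of the 40 H3K4me3 regions in both conditions, 36 were shorter after Adriamycin and 4 longer. Of the 57 H3K79me2 regions in both conditions, 36 were shorter and 20 longer, although the total length of H3K79me2 was higher after Adriamycin.

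Regions that held at least 4 of the 5 targets numbered 14, with a median length of 11.8 kb. The longest of these, chr4:145258883-145280545, held 58 peaks over 21.7 kb and lacked H3K27me3. It carried H3K79me2 over 11.7 kb untreated and 10.1 kb treated, and hnRNP L over 10.8 kb and 14.4 kb. The region chr4:146602986-146618086 carried the strongest untreated hnRNP L peak, with hnRNP L over 13.0 kb and 11.0 kb and H3K79me2 over 11.9 kb in each condition. The region chr4:146925331-146941335 was the reverse. It had H3K79me2 over 14.0 kb and 13.2 kb, no hnRNP L in untreated cells and 1 peak of it after Adriamycin.

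All 5 targets met in 2 regions, chr4:145166580-145184768 and chr4:145710669-145725041. In the first, hnRNP L covered 8.33 kb untreated and 10.1 kb treated, and H3K27me3 1.27 kb and 1.07 kb. In the second, hnRNP L covered 11.0 kb and 10.6 kb and H3K27me3 4.10 kb and 3.42 kb. Pol II was in the untreated list in both regions and in neither after Adriamycin.

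Long stretches of the cluster carried scattered hnRNP L peaks and no peak of the other 4 targets. The longest, chr4:145771233-146019202, was 248.0 kb without a peak of the other 4 targets in either condition, and held 10 hnRNP L peaks in untreated cells and 11 after Adriamycin. These covered 9.93 kb and 12.4 kb of it. Parts of 75.4 kb (chr4:145771233-145846616) and 56.6 kb (chr4:145960857-146017421) inside it had no peak of any target. The next, chr4:146360184-146515929, was 155.7 kb with 7 and 11 hnRNP L peaks. Long stretches without the other 4 targets were not particular to the cluster. In the flank every step of 50 kb from 143100001 to 143950000 lacked a peak of any target. Within the cluster the longest stretch with no peak of any target was chr4:144906991-144993083, 86.1 kb. It lay between the strong H3K27me3 peak of the proximal edge and the outermost hnRNP L peak. hnRNP L peaks were thus found both beside transcribed marks and far from them.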

How the data were processed

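Peak lists were used as the authors deposited them, 1 per target and condition. The build mm9 and the tools MACS 1.4.1 and CASAVA 1.8.2 are taken from the submitters' processing notes. The deposited peak starts and ends, and the score of each peak, are the authors' values. The score was used to describe, rank and filter peaks within a list, and starts are printed 1-based. The sources used here do not give read depth, an input library, or the treatment of duplicate and multiply matching reads.

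From these lists were computed counts, covered length, partners (overlap of at least 1 bp), regions joined over gaps of up to 1 kb and steps of 50 kb. Windows of the same size were tiled over the numbered chromosomes and X. Intervals are exact Clopper-Pearson 95% and cover counting error only. With 1 library per group no treatment test was made. Of the 10 planned Fisher tests of partner share 8 were run, since the flank held 0 hnRNP L peaks. The sequence content of peaks and genes at peaks were not run, as no mm9 genome or annotation was used here. The named-peak rule took the 3 highest-scoring peaks per list, the 3 highest without a partner, the 3 longest hnRNP L runs and regions with at least 4 targets; the text prints part of them. Steps, stretches and pairs outside it were named after their values were seen.

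The members and lists were chosen with earlier results of these data known. Chosen after values were seen were the 10 kb gap of runs, the 20 kb minimum of windows, the width test, the equal pairs, the promoter comparison and its bordering genes, the removal of 1 step and the span of hnRNP L as a window. Promoters were aligned in pairs with Biopython 1.88, and identity is identical bases over 250. The overlap and counting steps were tested on simulated data. Fisher tests and intervals came from SciPy 1.17.1 under Python 3.11.15, tables from pandas 2.3.3 with numpy 2.4.6, and plots from matplotlib 3.10.9.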

Additional observations from a re-analysis of the deposited data

How the results depend on the processing

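With 1 library per group and depth unknown, no value below bears on the spread between cultures, and weak peaks depend on each library's unknown sensitivity. Of 190 values under alternatives, 142 stayed within the limits set for them and 48 did not. Restricting the stretch to the span from the first to the last hnRNP L peak, chosen after seeing the data, moved 0 of 25. The H3K79me2 ratio was 1.03 with equal numbers of top-scoring peaks, 1.15 at a score of at least 100 and 1.02 without the step that differed most. The cause of the shifts below was not tested. No paired analysis was possible because the labels give no replicate numbers and each group had 1 library.

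At a score of at least 100, the H3K27me3 ratio turned to 1.03. The cluster then held 3 H3K27me3 peaks in each condition, 46 H3K4me3 peaks after Adriamycin, 26 Pol II peaks after Adriamycin, 88 and 123 H3K79me2 peaks in untreated and treated cells, and 53 and 52 hnRNP L peaks, which started 11742 and 15307 bp apart. Shares with a partner were then 95.7% for H3K4me3 and 69.1% for H3K79me2 after Adriamycin, and 35.8% and 38.5% for hnRNP L in untreated and treated cells. Of Adriamycin hnRNP L peaks then 15.4% overlapped H3K4me3 and 0 overlapped H3K27me3. The partner share in the cluster minus the flank, in percentage points, was then 3.03 for H3K27me3 after Adriamycin, -2.64 for untreated H3K4me3, -10.1 for untreated Pol II and -22.6 for H3K79me2 after Adriamycin (adjusted p = 0.0406, Fisher's exact test, with a range of 0.0406 to 1 over the 4 alternatives of that result).

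With an overlap of at least 50%, the H3K79me2 difference was -17.0 points (adjusted p = 0.0456, Fisher's exact test), and 43.8% of untreated hnRNP L peaks had a partner. With equal numbers of peaks, 83.0% of Adriamycin H3K79me2 peaks had a partner, and the difference for untreated Pol II was -4.62 points. With 250 kb taken off each end, differences were -5.27 and -2.04 points for treated and untreated H3K4me3 and -2.78 for untreated Pol II, and 31 Adriamycin Pol II peaks remained. Merging peaks within 1 kb left 81 and 93 H3K79me2 peaks and hnRNP L starts 7871 and 8244 bp apart in untreated and treated cells. Counting peaks within 1 kb as overlapping gave hnRNP L shares of 19.5% and 19.6% on H3K4me3, 23.1% and 12.5% on Pol II, and 30.4% on H3K79me2 after Adriamycin. The distal side as the flank held, in untreated and treated cells, 156 and 174 H3K4me3, 188 and 192 H3K27me3, 244 and 252 H3K79me2, 377 and 281 Pol II peaks, and 1 hnRNP L peak each.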
